A study of Mus musculus with 384 samples.

Results

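Genes for the subunits of oxidative phosphorylation were described in single ipRGCs (intrinsically photosensitive retinal ganglion cells) from postnatal day 1 (P1) and postnatal day 5 (P5) mouse retina. The members were taken by their symbols, which had to name a subunit of complexes I to V, and 95 of the 55331 gene IDs in the files matched, under 94 symbols, because *Atp5o* is listed under 2 IDs. Of these, 13 are encoded in mitochondrial DNA and 82 in the nucleus. The rule reads symbols and uses no measured value. The study sorted 384 cells, in equal numbers at both ages, from retinas of *Opn4Cre/+; Brn3bzDta/+; Rosa26fsTRAP/+* mice, and the cells of both ages share these 3 alleles. The Opn4Cre allele expresses Cre from the melanopsin gene and leaves 1 intact copy of *Opn4*, the Rosa26fsTRAP allele adds GFP to a ribosomal protein wherever Cre has been active, and the Brn3bzDta allele expresses diphtheria toxin A from the *Brn3b* (*Pou4f2*) locus after Cre. The cells were those positive for GFP and for the RGC surface antigen CD90, and cells that turned on both Cre and *Brn3b* are exposed to the toxin allele, so the cells may not stand for all ipRGCs. The labels give no drug, dose or control genotype, and they tie no cell to an animal. Each age was therefore treated as 1 sample, no test was made between ages or between kinds of cell, and every interval given covers counting error only.

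Oxidative phosphorylation makes most of the ATP of a neuron. Complexes I and II pass electrons from NADH and succinate to ubiquinone, complex III passes them on to cytochrome c, and complex IV hands them to oxygen, while complexes I, III and IV move protons across the inner mitochondrial membrane and complex V, the ATP synthase, uses their return to make ATP. Complexes I, III, IV and V are built from subunits of both genomes, and complex II from nuclear subunits alone. The mitochondrial subunits are cut from long polycistronic transcripts, so that neighboring genes are transcribed together, while each nuclear subunit has a promoter of its own. Retinal neurons, with their long axons and high ion traffic, are known for heavy use of ATP.

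Cells with at least 1000 detected genes were kept, which left 372 cells, 190 of them from P1, with 486710 to 1452724 and 264527 to 1449792 fragments on genes at P1 and P5. Values are fragments per 1000000 fragments on genes (CPM), summed over the cells of an age unless a single cell is meant, and FPKM is used only where genes of different length are compared. The RGC marker *Rbpms* was detected in 92.1% of P1 and 96.7% of P5 cells and *Eomes* in 90.5% and 85.2%, and of the markers of other cells, the astrocyte genes *Gfap* and *Pdgfra* were at 0 and the Müller glia gene *Rlbp1* was found in 0 P1 cells and 1 P5 cell, although the 4 genes of the Müller glia or progenitor list summed to 42.2 and 48.6 CPM, nearly all from *Glul* and *Sfrp2*. Detection of the 7 RGC markers ran from 15.8 to 96.8% of P1 cells and from 37.9 to 98.9% of P5 cells, lowest for *Pou4f1*. The CD90 gene *Thy1* was found in 46.3% and 57.1%. Among markers of other cells, the horizontal cell gene *Onecut1* was found in 24.7% and 21.98%, while *Lhx1* was at 0. The amacrine cell gene *Slc6a9* was found in 5.79% and 8.79%, while *Gad1* was at 0. Several features of the whole cells moved with age. The median number of detected genes was 5081 at P1 and 6600 at P5, and 3 hemoglobin genes summed to 76.2 and 0.280 CPM, with *Hbb-bs* in 47.9% of P1 and 1.65% of P5 cells. The loci *CT010467.1* and *AY036118* held 3.88% and 5.59% of fragments. Cells with Y-linked but no *Xist* fragments numbered 26 at P1 and 160 at P5, and cells with *Xist* but no Y-linked fragments 150 and 0. By these transcripts most P1 cells were female and most P5 cells male, so sex and age are largely confounded in the pooled values. The part of these features in the differences between ages was not tested. The age differences of the whole mitochondrial and whole nuclear sums are also given within Y-only cells. They are given too within the 4 runs of 96 library numbers, each of which held cells of both ages. Sums of single complexes or of other parts of the list are not given in this way.

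The sequences of 3 members are shown beside their copies elsewhere in the genome, because a fragment of 75-base paired reads that falls in such a stretch can be given to either gene. Transcript sequences are from GENCODE M21 on GRCm38, in the direction of the transcript, and capitals mark the bases that differ. The first pair is the start of *mt-Nd3* (chrM:9459-9608, + strand), a complex I subunit gene, and of its copy *Gm28438* in a nuclear insert of mitochondrial DNA (chr1:24612970-24613119, - strand).
mt-Nd3: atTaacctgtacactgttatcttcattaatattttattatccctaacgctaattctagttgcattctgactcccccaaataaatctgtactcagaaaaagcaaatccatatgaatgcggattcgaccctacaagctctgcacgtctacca
Gm28438: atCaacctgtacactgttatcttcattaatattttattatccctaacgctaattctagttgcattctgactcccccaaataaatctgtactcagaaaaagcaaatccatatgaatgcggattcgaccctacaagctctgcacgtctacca
Counted from 1 at the 5′ end, they differ by T3C and by nothing else over 345 aligned bases. The second pair is the coding sequence of *Cox6c*, a small complex IV subunit (gene chr15:35925886-35938246, - strand), and the intronless *Cox6c2* (chr12:56373593-56373823, - strand), which matched the rule by name and is annotated as a processed pseudogene.
Cox6c: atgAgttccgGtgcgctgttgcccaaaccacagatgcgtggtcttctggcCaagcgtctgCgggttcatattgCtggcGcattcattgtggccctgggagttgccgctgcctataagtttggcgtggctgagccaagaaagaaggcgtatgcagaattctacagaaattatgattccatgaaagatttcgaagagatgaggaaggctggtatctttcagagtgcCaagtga
Cox6c2: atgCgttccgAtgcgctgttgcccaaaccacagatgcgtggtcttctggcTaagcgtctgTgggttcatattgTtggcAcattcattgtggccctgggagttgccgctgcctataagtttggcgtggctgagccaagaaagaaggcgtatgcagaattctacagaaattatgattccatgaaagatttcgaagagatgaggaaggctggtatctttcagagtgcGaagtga
They are 96.97% identical over 231 bases, the 7 differences being A4C, G11A, C51T, C61T, C74T, G79A and C225G. The third pair is a stretch of *Ndufa12*, an accessory complex I subunit (gene chr10:94198720-94221443, + strand), and of the pseudogene *Gm15920* (chr5:130188473-130188622, + strand).
Ndufa12: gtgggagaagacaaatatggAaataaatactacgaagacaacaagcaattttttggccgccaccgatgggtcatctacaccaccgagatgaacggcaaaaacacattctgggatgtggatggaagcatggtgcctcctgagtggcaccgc
Gm15920: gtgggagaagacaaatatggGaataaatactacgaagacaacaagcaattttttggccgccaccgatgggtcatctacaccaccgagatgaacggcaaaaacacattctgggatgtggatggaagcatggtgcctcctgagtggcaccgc
Over 402 aligned bases this pair had 2 differences, 1 of them inside the stretch shown. All of *mt-Nd4l* but its last 3 bases (chrM:9877-10170, + strand) was identical over 294 bases to *Gm10222* (chr1:24612407-24612700, - strand), so that no fragment within it can be told apart.

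The 13 mitochondrial genes were far from equally abundant, and the 6 lowest lie next to each other on the mitochondrial genome. *mt-Cytb*, the only mitochondrial subunit of complex III, held 50.3% of all mitochondrial member fragments, *mt-Co1*, the catalytic subunit of complex IV, 21.4%, and *mt-Nd1*, a membrane subunit of complex I, 12.8%. Another 4 complex I genes followed, *mt-Nd5* with 6.03%, *mt-Nd4* with 4.84%, *mt-Nd2* with 3.38% and *mt-Nd6* with 1.14%. The other 6 genes lie between *mt-Co1* and *mt-Nd4* and together held 0.149%, or 7603 fragments over 372 cells. Per length, the mean level over kept cells was 8551 FPKM for *mt-Cytb*, 2442 FPKM for *mt-Nd1*, 2325 FPKM for *mt-Co1* and 547 to 628 FPKM for *mt-Nd4*, *mt-Nd2*, *mt-Nd6* and *mt-Nd5*. It was 23.8 FPKM for *mt-Atp6*, 14.4 FPKM for *mt-Atp8*, 11.99 FPKM for *mt-Co2*, 8.06 FPKM for *mt-Co3*, 4.17 FPKM for *mt-Nd3* and 1.55 FPKM for *mt-Nd4l*. The subunits of 1 complex thus differed widely, and *mt-Co2* and *mt-Co3*, which join *mt-Co1* in the complex IV core, were each more than 100 times lower per length than *mt-Co1* in these tables.

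**Figure D1:**
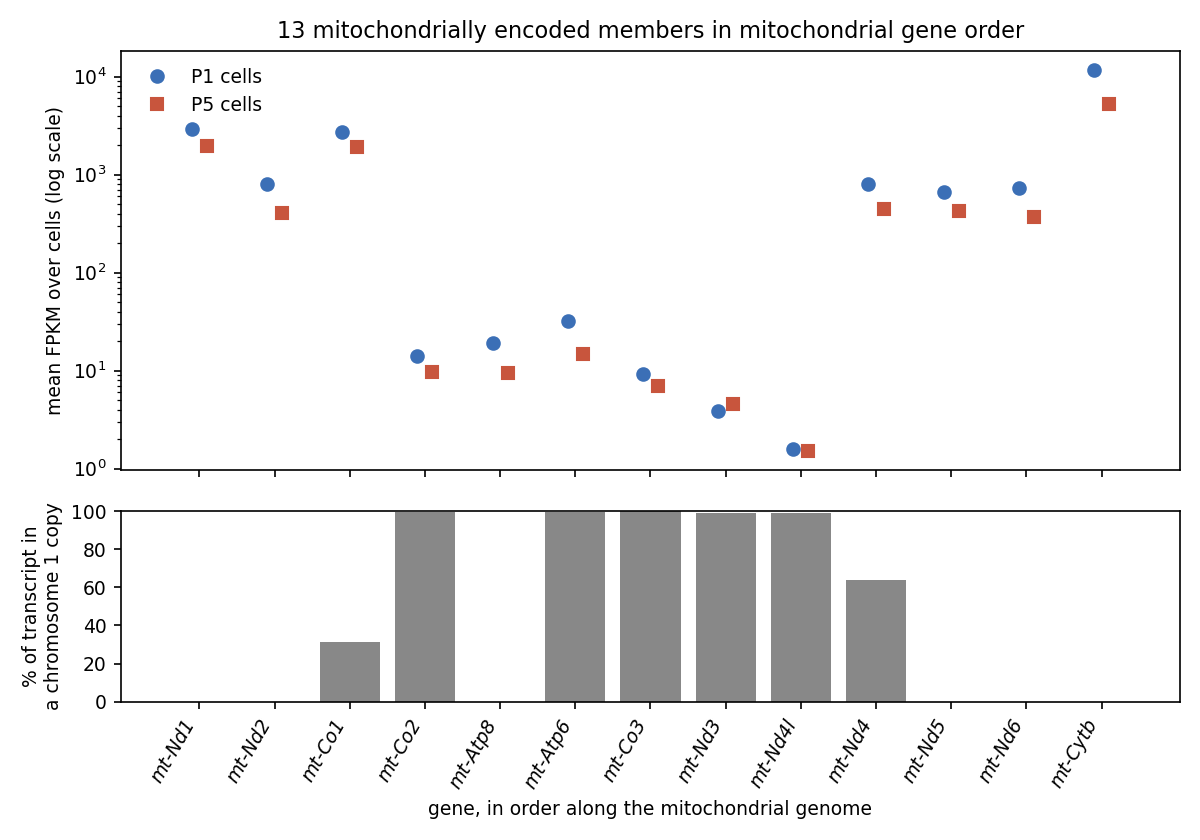
Mean FPKM over kept cells (log axis) of the 13 mitochondrially encoded members in the order of the mitochondrial genome, at P1 and P5. The 6 neighbors from *mt-Co2* to *mt-Nd4l* lie between 1.51 and 32.4 FPKM and the other 7 between 367 and 11746 FPKM. The median gene was lower at P5 by 0.56 on the log2 scale in this unit, and the gap between ages includes that shift. Bars below give the percent of each transcript covered by an annotated chromosome 1 copy, 31.3% for *mt-Co1*, 63.6% for *mt-Nd4*, 98.99% or more for 5 of the 6 neighbors and 0 elsewhere. Copies outside annotated transcripts were not searched for.

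Of these 6 genes, 5 have a nearly complete annotated nuclear copy. So does the abundant *mt-Co1*, with *Gm13340* on chromosome 2 (97.6% identity, 489 fragments). Annotated copies on chromosome 1 covered 98.99 to 99.9% of *mt-Co2*, *mt-Atp6*, *mt-Co3*, *mt-Nd3* and *mt-Nd4l*. No annotated copy was found for *mt-Atp8*, which held 0.00296% of the mitochondrial sum. It lies between *mt-Co2* and *mt-Atp6*, and only annotated transcripts were searched, so a copy outside them would have been missed. Fragments of *mt-Atp6* and its copy *Gm10925* were split almost evenly, 3670 against 3645, and so were those of *mt-Co3* and *Gm28437*, 1594 against 1551, and of *mt-Nd4l* and *Gm10222*, 49 against 51. In the 303 cells with at least 10 fragments on *mt-Atp6* and *Gm10925* together, the median share given to *mt-Atp6* was 50%, with quartiles of 42.9% and 58.1%. The split was less even in the other two pairs, with 201 fragments on *mt-Nd3* against 23 on *Gm28438* and 1938 on *mt-Co2* against 796 on *Gm28661*. All chromosome 1 copies together held 7867 fragments, of which 1486 were on a partial copy of *mt-Co1* and 315 on that of *mt-Nd4*. Both this total and the 7603 of the 6 genes are far below the 57981 or more of each of the other 7. Adding the annotated copies therefore leaves the 6 genes low. How the authors' counting treated fragments with several matches is not given in the sources used here, and losses of such fragments before counting were not tested. Where *mt-Atp8* overlaps *mt-Atp6*, and *mt-Nd4l* overlaps *mt-Nd4*, on the same strand, fragments inside the overlap cannot be told apart, and where *mt-Nd5* overlaps *mt-Nd6* on the opposite strand they cannot because the use of strand is not stated.

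The mitochondrial members held a smaller share of fragments at P5 than at P1, and the nuclear members a larger one. Mitochondrial members summed to 1.64% of fragments at P1 (1.640 to 1.644%, 95% exact Poisson interval) and 1.42% at P5 (1.417 to 1.421%), a log2 difference of -0.21. Nuclear members summed to 1.65% and 1.80%, a log2 difference of 0.13. The ratio of mitochondrial to nuclear fragments was 0.993 at P1 and 0.787 at P5, a log2 difference of -0.34. The mitochondrial difference rested on *mt-Cytb*, since the other 12 genes summed to 7596 CPM at P1 and 7690 CPM at P5, a log2 difference of 0.02. In the 4 runs of library numbers the mitochondrial share was 1.38%, 1.62%, 1.76% and 1.75% at P1 and 1.23%, 1.41%, 1.42% and 1.56% at P5, lower at P5 in 4 of 4. The nuclear share was 1.83%, 1.66%, 1.51% and 1.64% at P1 and 1.88%, 1.70%, 1.85% and 1.81% at P5, higher in 4 of 4, though by little in the first pair of runs. Within Y-only cells the mitochondrial share was 1.88% and 1.36% and the nuclear share 1.74% and 1.83%. On the deposited FPKM scale, where the median gene was lower at P5 by 0.56 (log2), the sums differed by -0.92 and -0.47, so that the nuclear sum, though not its share, is lower at P5 on that scale. Relative to the median gene the values are -0.37 and 0.08.

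Cells differed more in mitochondrial than in nuclear members. The mitochondrial share had a lowest value, median and highest value of 0.542%, 1.56% and 4.98% over P1 cells, and of 0.0243%, 1.34% and 5.75% over P5 cells. For nuclear members these were 0.922%, 1.56% and 3.87% at P1 and 0.969%, 1.77% and 3.19% at P5. The ages overlapped over nearly their whole range in both shares, and the medians differed by less than 1 SD over cells (0.563 and 0.639 percentage points for mitochondrial, 0.398 and 0.393 for nuclear members). The coefficient of variation was 34.7% and 45.3% for mitochondrial members at P1 and P5, against 24.2% and 21.7% for nuclear members. Mitochondrial fragments outnumbered nuclear member fragments in 100 of 190 P1 cells (52.6%, 45.3 to 59.9%, 95% exact binomial interval) and in 54 P5 cells (29.7%, 23.1 to 36.9%). In 4 P5 cells the mitochondrial share was under 0.5%, at 0.0243%, 0.303%, 0.311% and 0.409%, while their nuclear shares were 2.96%, 1.49%, 2.91% and 0.969%, which spans most of the range of the P5 cells. The lowest P1 cell was at 0.542%. The 10 P5 cells left out by the filter stood further apart, with 5 mitochondrial against 1973 nuclear member fragments in all.

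**Figure D2:**
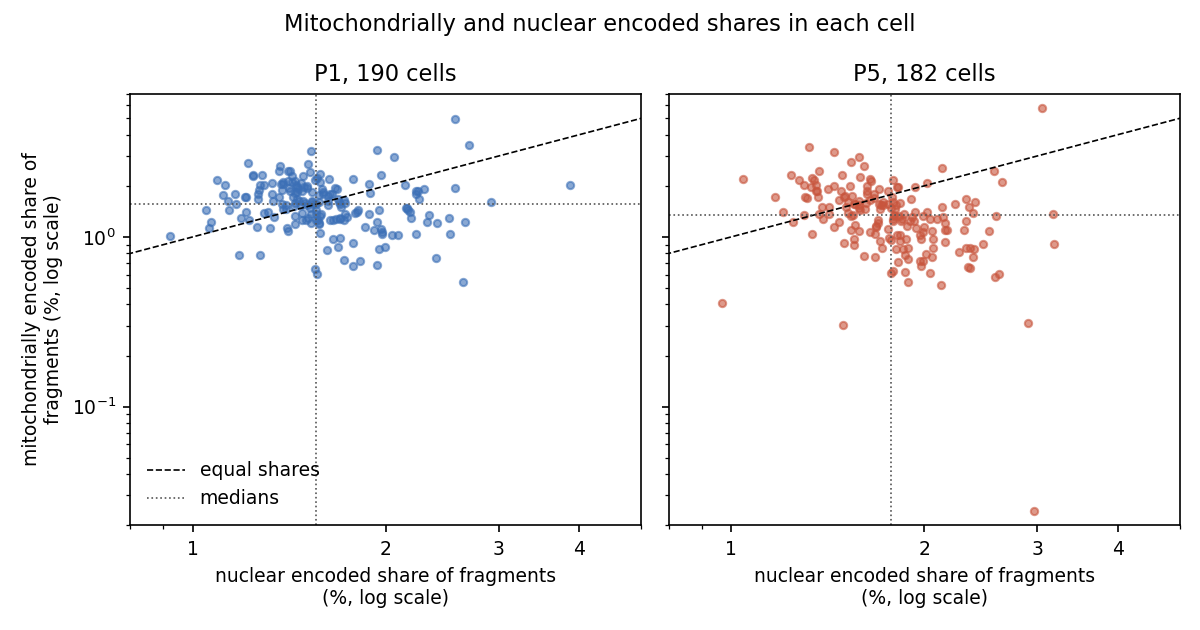
Share of fragments on mitochondrial (vertical) against nuclear (horizontal) members in percent, 1 point per kept cell, P1 (left) and P5 (right), on log axes, with a dashed line of equal shares and dotted lines at the medians. The P5 medians lie lower and further right, and 4 P5 cells lie below 0.5% on the vertical axis.

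At P5 cells high in 1 group tended to be low in the other, and at P1 this depended on the measure. Over cells of an age, Spearman's rho between the mitochondrial and nuclear shares was -0.23 at P1 (n = 190) and -0.44 at P5, while Pearson's r was -0.02 and -0.22. Both are shares of 1 total, and the mitochondrial share also had a rho of -0.42 and -0.31 with the number of detected genes. The 7 abundant mitochondrial transcripts moved together from cell to cell, with rho between 0.24 and 0.54 over their 21 pairs at P1 (median 0.36) and between 0.50 and 0.71 at P5 (median 0.67). These are descriptions of cells that share libraries and a denominator, and no test was made.

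Among single mitochondrial genes, none of the 9 with a mean of at least 5 CPM differed by 1.5-fold or more between ages, where 9.9% of the 11397 genes tested for size were at least 1.5-fold higher at P5 and 10.4% at P1. Within Y-only cells 4 of them, and on the deposited FPKM scale 7, were 1.5-fold or more higher at P1. The share of all genes that passed under these settings is not given, so these counts have no background. On the FPKM scale the median gene itself was lower at P5 by 0.56 (log2), close to the 1.5-fold limit. The apocytochrome b gene *mt-Cytb* (ENSMUSG00000064370.1, chrM:14145-15288) had a lowest, median and highest value over cells of 2528, 8184 and 36644 CPM at P1 and of 0, 5969 and 25196 CPM at P5, and summed to 8823 and 6500.3 CPM (log2 -0.44). *mt-Co1* (chrM:5328-6872) had 463, 3077 and 6734 CPM at P1 and 242, 3306 and 10999.6 CPM at P5, and summed to 3143 and 3435 CPM (log2 0.13). For both genes the cells of the ages overlapped broadly. Of the complex I genes, *mt-Nd1* (1947 and 2001 CPM) and *mt-Nd5* (929 and 924 CPM) were almost level, while *mt-Nd4* (788 and 694 CPM), *mt-Nd2* (572 and 461 CPM) and *mt-Nd6* (194 and 153.5 CPM) were lower at P5, by log2 values of -0.18, -0.31 and -0.34. *mt-Atp6*, which forms the proton channel of complex V, had 12.6 and 9.40 CPM (log2 -0.42). *mt-Co2* (5.76 and 5.94 CPM), *mt-Co3* (4.50 and 5.15 CPM), *mt-Atp8* (0.493 and 0.414 CPM), *mt-Nd3* (0.470 and 0.758 CPM) and *mt-Nd4l* (0.126 and 0.172 CPM) had too few fragments to compare by cell. In 4 of 4 runs of library numbers *mt-Nd2*, *mt-Nd4*, *mt-Nd6*, *mt-Cytb* and *mt-Atp6* were lower at P5, and none of the 9 was higher in all 4. No share of all genes with 1 sign over the runs is given beside this. The ribosomal RNA genes of the same genome, which lie outside the member list, had log2 differences of -0.10 (*mt-Rnr2*, 3065 and 2855 CPM) and 0.15 (*mt-Rnr1*, 158.6 and 175.8 CPM).

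Nuclear members were detected in most cells and differed little between ages. Of the 82, 56 were detected in at least 90% of kept cells, 7 in under 50%, and *Cox8c* in 0 of 372 cells, which allows a share of cells with a fragment of up to 0.806% by the limit of 3 counts and up to 0.987% by the exact interval. The median cell held fragments of 70 nuclear members at P1 and 74 at P5, and of 67 and 72 after each cell was thinned to 50000 fragments. Of the 75 with a mean of at least 5 CPM, 0 were 1.5-fold or more higher at P5 (9.9% of all genes were) and 0 at P1 (10.4%). Most members are abundant, and abundant genes differed less in general. Among the 2266 genes at 100 CPM or more, 2.29% were past 1.5-fold at P5 and 2.65% at P1, and the 67 members in that range had a median log2 of 0.10 with quartiles of 0.02 and 0.25, against -0.19 and 0.18 for all 2266. By sign, 56 of 75 were above 0 and 19 below, and the median over all genes was -0.00. In 4 of 4 runs of library numbers 19 members were higher at P5 and 4 were lower, the latter being *Cox7c*, *Cox7a2*, *Cox6b1* and *Ndufb10*. The share of all genes that kept 1 sign over the runs is not given, so these counts have no background beside them. Leaving out the first 48 P1 cell numbers brought 3 members past 1.5-fold at P5, leaving out the third 48 P5 cell numbers brought 1 and leaving out the fourth 48 brought 2, and within Y-only cells 6 were past it at P5 and 3 at P1. On the deposited FPKM scale, with its shift of the median gene close to the limit itself, 18 were past it at P1, so the directions of single members given here hold for the CPM scale. For the counts in these alternatives the share of all genes is not given, and they have no background beside them.

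**Figure D3:**
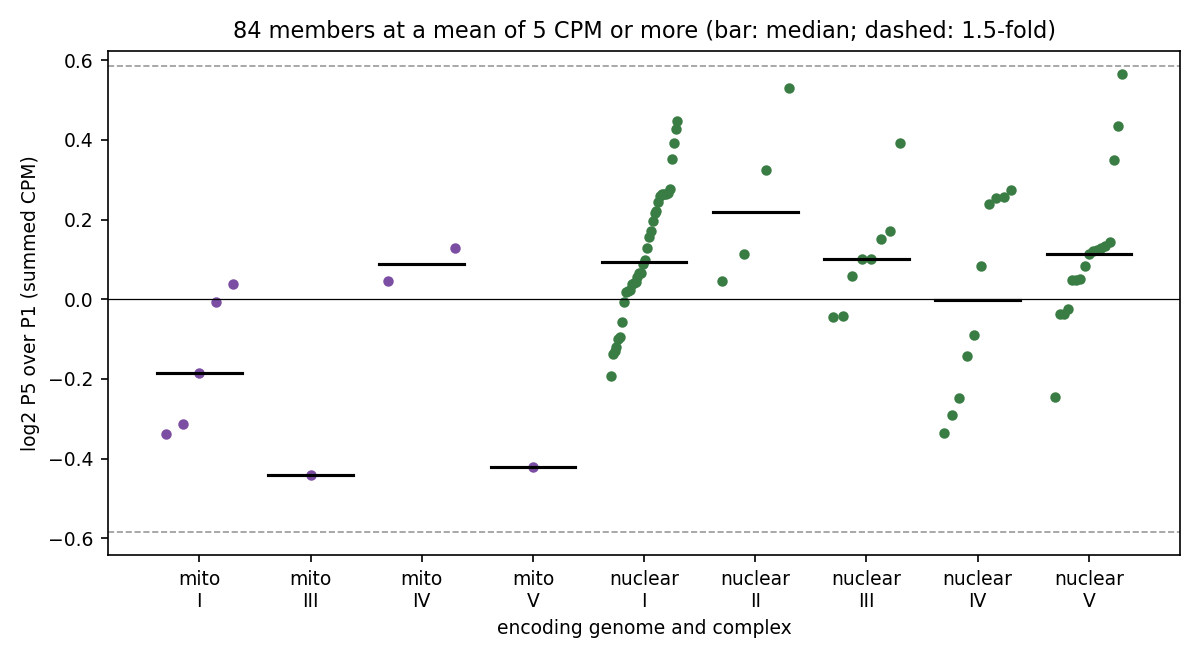
Log2 of summed CPM at P5 over P1, with no correction for the shift seen in FPKM, for each member with a mean of at least 5 CPM, 1 point per gene, by complex and genome, with bars at the medians and dashed lines at 1.5-fold. All points lie within the 1.5-fold lines, complex II lies above 0 and nuclear complex IV is spread evenly around 0.

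The 36 nuclear genes of complex I, the NADH dehydrogenase, summed to 6550 CPM at P1 and 7091 CPM at P5, with 28 of 36 above 0 and a median log2 of 0.09. Per length the most abundant were *Ndufb8* and *Ndufa7*, accessory subunits, and *Ndufa4*, which was named for complex I and has since been found in complex IV. They stood at 1392, 776 and 941 FPKM and at 618 and 634 CPM, 241 and 222 CPM, and 296 and 300.3 CPM. The largest differences toward P5 were in *Ndufs8*, an iron-sulfur subunit of the core (chr19:3908863-3912774), and in the accessory subunit *Ndufa10*. *Ndufs8* had 0, 125.4 and 554 CPM as lowest, median and highest cell at P1 and 0, 188.5 and 735 CPM at P5, and summed to 148.7 and 203 CPM (log2 0.45, 0.27 to 0.74 over the 4 runs). The cells overlapped, but the run values kept 1 sign. *Ndufa10* summed to 201 and 270.4 CPM (log2 0.43), with run values from -0.09 to 0.86, so that its sign was not the same in every run. The largest differences toward P1 were in *Ndufa12* (131.5 and 115.1 CPM, log2 -0.19, runs -0.55 to 0.23) and *Ndufb10* (231 and 209.6 CPM, log2 -0.14). The *Ndufa12* value rests on a divided signal, since *Gm15920* held 26160 fragments, 63.8% of the 41023 given to *Ndufa12*, and with the copy added the log2 value was -0.24. Split by role after the values had been seen, the 7 nuclear core subunits, which hold the flavin and the iron-sulfur clusters, had a median log2 of 0.28 with 6 of 7 above 0 (1220 and 1480 CPM), and the 29 accessory subunits 0.07 with 22 of 29 above 0.

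All 4 genes of complex II, succinate dehydrogenase, were higher at P5 in CPM, with sums of 1017 and 1157 CPM. *Sdhc*, a membrane anchor of the complex (chr1:171127165-171150603), had 0, 50.2 and 613 CPM as lowest, median and highest cell at P1 and 0, 115.6 and 382 CPM at P5. It summed to 80.8 and 116.7 CPM (log2 0.53, 0.30 to 0.80 over runs). The median cell was higher at P5 while the highest cell was from P1. *Sdhd*, the other anchor, had 227 and 284 CPM (log2 0.32), *Sdhb*, the iron-sulfur subunit, 489 and 529 CPM (0.11), and *Sdha*, the flavoprotein, 220.2 and 227 CPM (0.05). Unlike *Sdhc*, they had run values of both signs, from -0.02 to 0.53 for *Sdhd*, -0.09 to 0.27 for *Sdhb* and -0.16 to 0.41 for *Sdha*.

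In complex III, 6 of 8 nuclear genes were above 0, with a median log2 of 0.10. The most abundant per length were small subunits around the core, led by *Uqcrq* with 852 FPKM, and their CPM were close to level, with 229 and 222 for *Uqcrq*, 164.9 and 160.3 for *Uqcr10*, and 191.4 and 199 for *Uqcrb*. *Uqcrfs1*, the Rieske iron-sulfur protein, differed more, with 230.3 and 302 CPM (log2 0.39), and *Uqcrc1*, a core subunit, had 615 and 692 CPM (0.17). These stand against the lower value of their mitochondrial partner *mt-Cytb* at P5.

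Complex IV was the nuclear complex with no lean to either age, with 5 of the 10 genes tested above 0 and 5 below. *Cox7c* (chr13:86044816-86046904), a small subunit, had 0, 128.02 and 1031 CPM as lowest, median and highest cell at P1 and 0, 112.8 and 292 CPM at P5, and summed to 152.3 and 120.7 CPM (log2 -0.34, -0.69 to -0.07 over runs). Its highest P1 cell lay above any P5 cell, and the ages overlapped otherwise. *Cox6b2* was lower by a log2 value of -0.29 at under 8 CPM, *Cox6c* by -0.25 (200.2 and 168.7 CPM) and *Cox7a2* by -0.14 (272 and 247 CPM). *Cox8a* (203 and 245 CPM, log2 0.27), *Cox6a1* (252 and 300.4 CPM, 0.26) and *Cox5b* (233 and 247 CPM, 0.08) were on the other side.

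In complex V, 13 of 17 genes were above 0, with a median log2 of 0.11. *Atp5b* encodes the catalytic beta subunit (chr10:128083273-128090391) and was the second most abundant nuclear member per length, with 1196 FPKM. It had 0, 853 and 2515 CPM as lowest, median and highest cell at P1 and 0, 1253 and 3903 CPM at P5, and summed to 963 and 1302 CPM (log2 0.44, 0.36 to 0.64 over runs). *Atp5d*, the delta subunit of the rotor stalk (chr10:80138632-80145818), had 0, 88.3 and 937 CPM at P1 and 0, 159.1 and 524 CPM at P5, and summed to 111.8 (110.2 to 113.3) and 165.4 (163.4 to 167.5) CPM, with exact Poisson intervals (log2 0.57, 0.29 to 0.94 over runs), the largest difference of any member tested. Both had the same sign in 4 of 4 runs, and both had P1 and P5 cells over the same range. *Atp5k*, the e subunit, was the lowest at -0.24 (81.96 and 69.2 CPM), with run values from -0.75 to 0.27. The OSCP gene *Atp5o* (668 and 651 CPM) and *Atp5md* (158.8 and 164.2 CPM) were close to level.

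**Figure D4:**
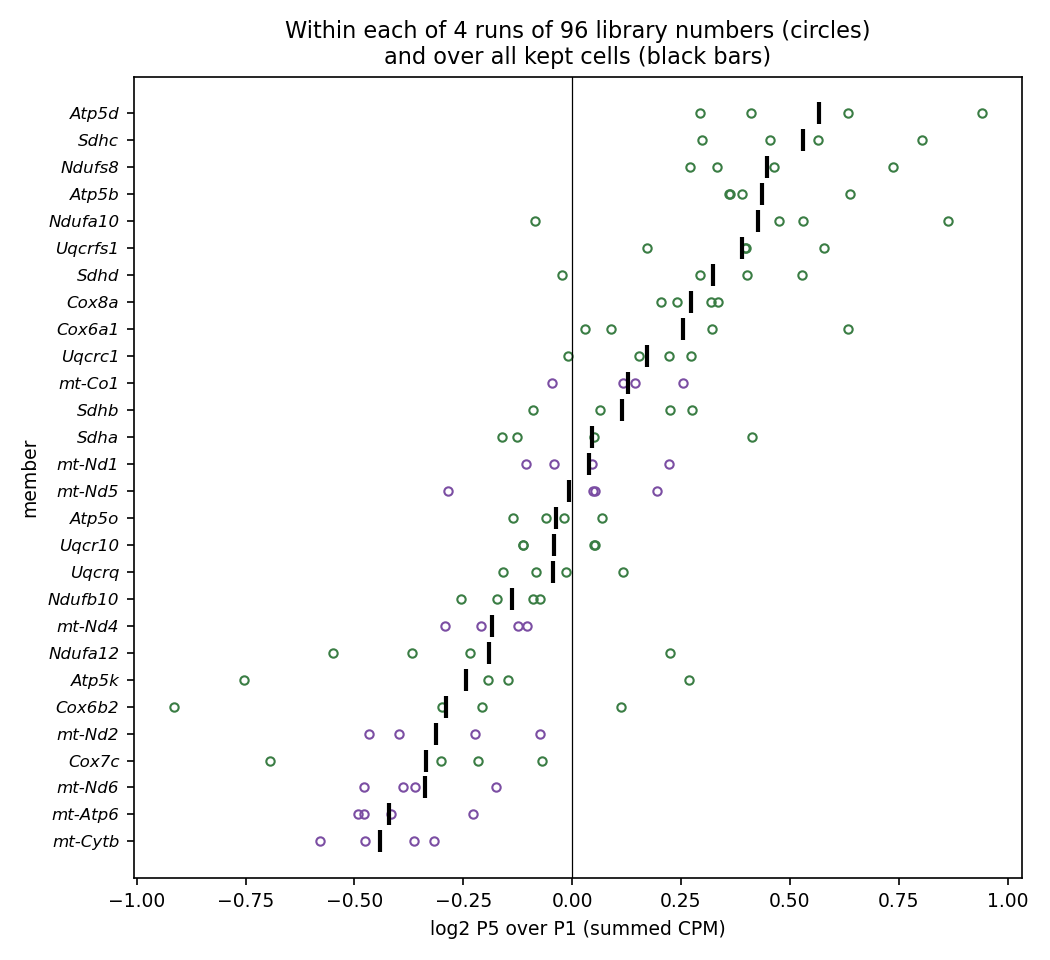
Log2 of summed CPM at P5 over P1 for 28 members. Black bars give the value over all kept cells and circles the values within each of the 4 runs of 96 library numbers, purple for mitochondrial and green for nuclear members. For *Atp5b*, *Atp5d*, *Sdhc* and *Ndufs8* the 4 circles lie above 0, for *mt-Cytb* and *Cox7c* below 0, and for *Ndufa10*, *Ndufa12* and *Atp5k* on both sides.

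Where a subunit has isoforms for different tissues, the widely expressed form was the abundant one. *Cox6a1* had a mean of 737 FPKM and its heart and muscle form *Cox6a2* 0.812 FPKM, *Cox7a2* had 691 FPKM and the muscle form *Cox7a1* 13.6 FPKM, and *Cox8a* had 650 FPKM and the muscle form *Cox8b* 0.912 FPKM. The testis form *Cox6b2* had 21.6 FPKM beside 689 FPKM for *Cox6b1*. By cells, *Cox6a2* was detected in 8 cells, *Cox8b* in 4, the testis form *Cox7b2* in 7, *Cox7a1* in 50 and *Cox6b2* in 80 of 372, and after thinning to 50000 fragments in 3, 1, 5, 25 and 42 cells. The 8 cells with *Cox6a2* were all from P5 (4.396%), and 0 of 190 P1 cells allows a share of cells with a fragment of up to 1.58% by the limit of 3 counts and up to 1.92% by the exact interval. *Cox6c2*, the intronless copy shown above, was detected in 300 cells, with a median of 3 fragments in them, while after thinning to 50000 fragments it was left in 13.98% of cells. Its few fragments lie in a sequence that is 96.97% identical to the abundant *Cox6c*. The ATP synthase c-ring subunit has 3 genes with the same mature protein, of which *Atp5g1* (583 FPKM) and *Atp5g3* (470.3 FPKM) were abundant and *Atp5g2* (47.6 FPKM) was not. *Atp5g2* was detected in 88 of 190 P1 cells (46.3%) and in 71.98% of P5 cells, although its sums, 19.7 and 21.5 CPM, were close.

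Copies were a small part of the nuclear signal. A copy of at least 95% identity was found for 26 of the 82 nuclear members, and all copies together held 1.46% of the fragments of the nuclear sum. After *Ndufa12*, the largest shares were *Gm10039* with 22.6% of the fragments of *Atp5g1*, *Gm10250* with 13.9% of *Atp5h* and *Gm10221* with 11.3% of *Atp5l*. *Gm12251* followed with 9.64% of *Ndufs3*. In 29 nuclear members an exon overlapped another gene, and those fragments cannot be told apart by strand here.

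Cells were next grouped by detection of *Opn4*, the melanopsin gene, and of *Pou4f2*, which M1 ipRGCs that project to the suprachiasmatic nucleus are known to lack. At P5 the cells with *Opn4* alone had the highest ratio of mitochondrial to nuclear fragments and those with *Pou4f2* alone the lowest, and at P1 the groups lay closer. The 65 P5 cells with *Opn4* and without *Pou4f2* held 1.63% mitochondrial and 1.64% nuclear fragments. The 58 with both held 1.42% and 1.85%, and the 45 with *Pou4f2* alone 1.08% and 2.03%. The 14 with neither held 1.499% and 1.67%. The ratio of mitochondrial to nuclear fragments was thus 0.989, 0.769, 0.533 and 0.899 in this order. At P1 it was 1.04 in 76 cells, 0.949 in 57, 1.07 in 27 and 0.885 in 30. The P1 mitochondrial shares were 1.65%, 1.56%, 1.92% and 1.52% in the same order, so that the share was almost level between ages in cells with *Opn4* alone, while in cells with *Pou4f2* alone, which numbered 27 at P1 and 45 at P5, it was 1.92% and 1.08%. In this last group at P1, single cells ranged from 0.542 to 4.98% with a median of 1.61%, beside a P5 median of 1.04%. The 4 highest P1 cells of any group, at 3.23%, 3.27%, 3.499% and 4.98%, were all in it. They had 2325 to 3901 detected genes, and the pooled 1.92% includes them. P5 cells with *Pou4f2* alone had mitochondrial shares from 0.518 to 2.54% and nuclear shares from 1.30 to 3.19%, which overlap the other groups. P5 cells with *Opn4* alone spanned 0.0243 to 5.75% in mitochondrial share. The low cells at 0.0243%, 0.303% and 0.311% were in this group. So were the high cells at 3.39% and 5.75%, with 3884 and 1297 detected genes, and the pooled 1.63% includes all of these. The median number of detected genes was 6261 in P5 cells with *Opn4* alone and 6737 in those with *Pou4f2* alone, and its part was not tested. A cell with no *Opn4* fragment in a GFP-positive sort may have had too little *Opn4* RNA to be sampled. Because the sorted cells were positive for GFP, those that express *Pou4f2* are also the ones exposed to the toxin allele. Here and in the contrasts below, detection of *Pou4f2* and exposure to the toxin cannot be told apart.

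**Figure D5:**
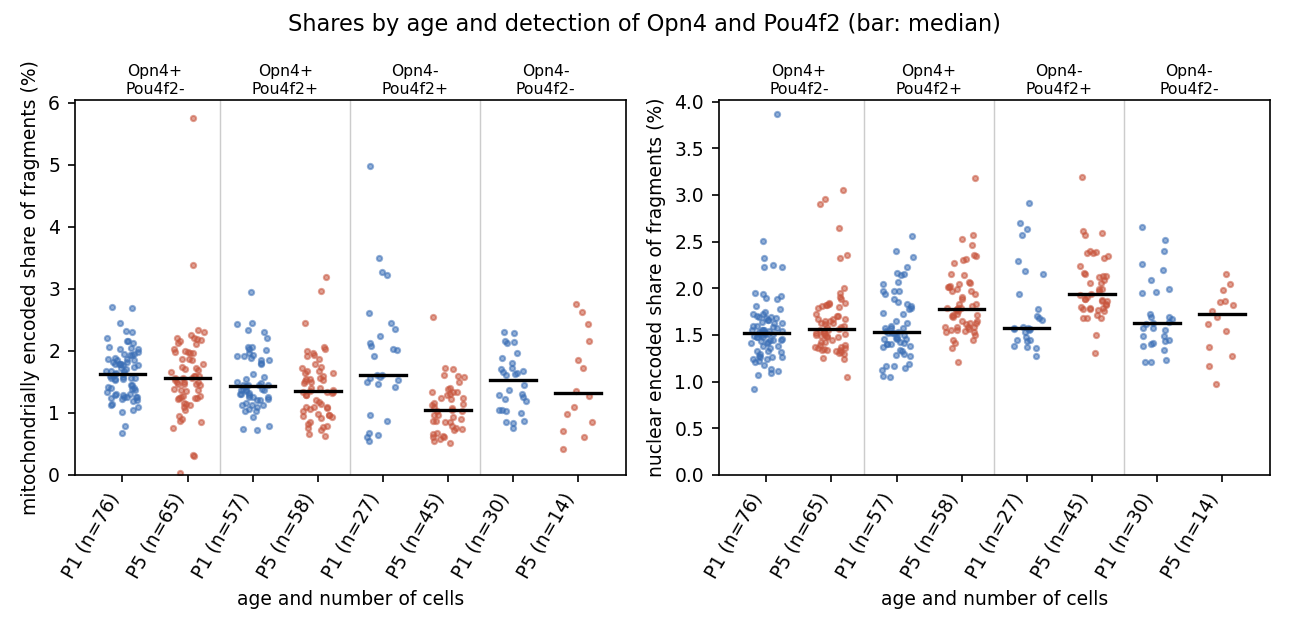
Share of fragments on mitochondrial and nuclear members in percent in single cells, by detection of *Opn4* and *Pou4f2* and by age, 1 point per cell, with bars at the medians. At P5 the median mitochondrial share is 1.55% in cells with *Opn4* alone and 1.04% in those with *Pou4f2* alone, and the median nuclear share 1.56% and 1.93%.

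In cells with *Opn4* alone over cells with *Pou4f2* alone at P5, the mitochondrial sum had a log2 value of 0.59 and the nuclear sum -0.30. The medians over the genes tested were 0.56 for mitochondrial and -0.21 for nuclear members, against -0.13 over all 11370 genes. Within the 4 runs the mitochondrial values were 0.37, 1.07, 0.26 and 0.71 and the nuclear values -0.25, -0.37, -0.29 and -0.25. At P1 the pooled values were -0.22 and -0.18, and the mitochondrial run values, 0.15, -0.29, -0.10 and -0.58, had both signs. The P1 median was -0.21 over the nuclear genes tested and 0.01 over all genes. All 9 mitochondrial genes tested were higher in P5 cells with *Opn4* alone, and 4 of them by 1.5-fold or more, where 19.6% of 11370 genes were that much higher. They were *mt-Nd1* (2522 and 1243 CPM, log2 1.02), *mt-Nd6* (0.95), *mt-Nd2* (0.88) and *mt-Atp6* (0.79). *mt-Cytb* had 7303 and 4996 CPM (0.55). Of the 75 nuclear genes, 12 were 1.5-fold or more lower in these cells, where 27.5% of all genes were, and 2 were higher, the small complex III subunit *Uqcr11* (log2 0.98) and *Cox6b2* (11.3 and 1.72 CPM). The 12 came from every complex, among them *Ndufa10* (-0.88), *Ndufa5* (-0.84), *Ndufv1* (-0.79), *Ndufs3* (-0.78), *Ndufb5* (-0.76) and *Ndufa7* (-0.59) in complex I, *Sdha* (-0.76) in II, *Uqcrc1* (-0.76) and *Uqcrb* (-0.67) in III, *Cox5a* (-0.75) in IV and *Atp5g2* (-0.75) in V. These members are named after their values were seen. Against cells with both genes, cells with *Opn4* alone had a mitochondrial log2 value of 0.08 at P1 and 0.19 at P5 and a nuclear value of -0.05 and -0.17. The medians over the nuclear genes tested were -0.04 and -0.11, beside -0.01 and -0.06 over all genes. Within runs the mitochondrial values had both signs, from -0.10 to 0.25 at P1 and from -0.08 to 0.42 at P5, and the nuclear values lay from -0.18 to 0.21 at P1 and from -0.31 to -0.04 at P5. Both contrasts share the cells with *Opn4* alone.

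*Cox6b2* had the largest log2 value of the members tested in this contrast, 2.72, but it passed the minimum of 5 CPM only through the group where it was high. It was detected in 22 of 65 P5 cells with *Opn4* alone (33.8%, 22.6 to 46.6%), in 15 of 58 with both (25.9%, 15.3 to 39.04%), in 5 of 45 with *Pou4f2* alone (11.1%, 3.71 to 24.1%) and in 2 of 14 with neither. At P1 these were 17 of 76, 9 of 57, 4 of 27 and 6 of 30. After thinning, 11 of 65 and 0 of 45 P5 cells kept a fragment, so that the counts are small.

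Other genes of the pathway were counted in the same way, against 9.9% and 10.4% of all genes past 1.5-fold at P5 and at P1 and a median log2 of -0.00. Of 6 tested subunits and carriers outside the symbol rule 0 passed 1.5-fold in either direction (median log2 0.13), with cytochrome c1, *Cyc1*, at 0.49 and the ATP synthase inhibitor *Atpif1* at -0.29. Of 42 assembly factors 1 was higher at P5 (*Cox18*, 0.91) and 3 lower (lowest *Lyrm7*, -1.15). Of 16 genes for transcription, replication and RNA stability in mitochondria 2 were higher and 4 lower, with a median of -0.10, the extremes being *Tfb1m*, a ribosomal RNA methylase, at 0.78 and *Polg2*, a subunit of the mitochondrial DNA polymerase, at -1.03. The 6 regulators of biogenesis had none past 1.5-fold (*Ppargc1a* 0.42, *Gabpb1* -0.32). Of 16 genes of the TCA cycle 1 was higher, citrate synthase *Cs* (225.7 and 338.5 CPM, log2 0.59), and *Ogdh* was lowest at -0.20. Of 15 glycolytic genes 2 were higher and 0 lower (*Eno2*, the neuronal enolase, 0.73, and *Pfkp* -0.21). Of 78 mitochondrial ribosomal protein genes 4 were higher and 0 lower (*Mrps22* 0.83, *Mrpl58* -0.38), and of 82 cytosolic ones 1 was higher and 0 lower (*Rps27a* 0.59, *Rpl35* -0.43). The medians of the last 4 lists, 0.18, 0.16, 0.09 and 0.10, stand beside 0.10 for the nuclear oxidative phosphorylation genes.

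Promoter windows, 250 bases before to 50 after the transcription start, were read for members from RefSeq on GRCm38.p6, and 66 of the 94 symbols had one. They were searched on both strands for NRF1 (GCGCATGC), ETS factors such as GABP (CCGGAAG), YY1 (GCCATNTT) and CREB (TGACGTCA), factors known for control of respiratory genes, and a match is only a run of letters. NRF1 matched 10 members (15.2%, against 3.05% of 27025 genes and 7.95% of 3633 genes at 50 CPM or more), ETS 17 (25.8%, against 9.93% and 23.3%), YY1 16 (24.2%, against 6.96% and 13.4%) and CREB 4 (6.06%, against 2.03% and 4.46%). The members' log2 values differed little by motif, with medians of 0.11 with and 0.10 without NRF1, 0.11 and 0.09 for ETS, 0.14 and 0.10 for YY1 and 0.22 and 0.10 for CREB. The 3 windows shown belong to *Atp5b*, with the YY1 letters just after the start, and to *Cox6a1* and *Atp5k*, which hold NRF1 letters on both strands in 1 overlapping run and ETS letters on the opposite strand, and which lay on opposite sides of 0. Capitals mark the motif letters, and positions are chr10:128083057-128083356 (+), chr5:115348909-115349208 (-) and chr5:108434350-108434649 (-).
Atp5b: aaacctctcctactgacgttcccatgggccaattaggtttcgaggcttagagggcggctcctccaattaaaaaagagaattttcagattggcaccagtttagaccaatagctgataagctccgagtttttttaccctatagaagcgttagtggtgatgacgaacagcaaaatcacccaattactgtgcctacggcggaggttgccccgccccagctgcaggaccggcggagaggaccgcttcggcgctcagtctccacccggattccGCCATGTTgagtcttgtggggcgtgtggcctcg
Cox6a1: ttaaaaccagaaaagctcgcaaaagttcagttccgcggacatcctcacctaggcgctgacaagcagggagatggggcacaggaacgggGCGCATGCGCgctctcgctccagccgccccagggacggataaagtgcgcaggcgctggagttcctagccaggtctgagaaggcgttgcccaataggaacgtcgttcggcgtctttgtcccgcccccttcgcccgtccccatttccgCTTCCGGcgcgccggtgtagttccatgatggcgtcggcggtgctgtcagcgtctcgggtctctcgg
Atp5k: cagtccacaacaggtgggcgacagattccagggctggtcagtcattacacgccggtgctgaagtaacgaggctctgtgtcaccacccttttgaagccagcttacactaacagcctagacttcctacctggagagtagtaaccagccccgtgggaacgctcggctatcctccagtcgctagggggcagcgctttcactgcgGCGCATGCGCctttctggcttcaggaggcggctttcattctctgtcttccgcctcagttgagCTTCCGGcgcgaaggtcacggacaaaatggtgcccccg
The YY1 letters of *Atp5b* are at 18 to 25 from the start. Binding of these factors was not measured.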

How the data were processed

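Single retinal cells positive for GFP and CD90 were prepared with Smart-seq2, which has no molecular identifiers, and sequenced with 75-base paired-end reads. The submitters' notes name HISAT2 2.1.0, SAMtools 1.9, Cuffquant and Cuffnorm of Cufflinks 2.2.1 and GRCm38.p6. The annotation, the use of strand and the handling of fragments with several matches are not given in the sources used here. The authors deposited a library-scaled fragment table (a signal), an FPKM table on a common scale, and the scale of each cell as a ratio beside the total fragment signal of its library. Here the scaled values were multiplied by that ratio to recover fragments, and 90.4% of values above 0 became whole numbers (1 or more, tolerance 0.01). A gene was detected from 0.99 fragments. CPM were computed from recovered fragments and summed over the cells of a group.

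The labels name no animals, so each age is 1 sample and no p-values were computed. Size calls used 1.5-fold among genes with a mean of at least 5 CPM. Doublets were not called, since cells were sorted singly. Intervals are exact at 95% (Clopper-Pearson for shares), and cover counting error only. Copies were found by BLAST 2.17.0 against GENCODE M21 transcripts, at 95% identity or more over at least 100 bases and over at least 50% of the copy's own transcript, without microRNA genes or genes overlapping the member. All 95 gene IDs are in M21. Promoter windows came from RefSeq, GRCm38.p6. Python 3.11.15, numpy 2.4.6, pandas 2.3.3, scipy 1.17.1 and matplotlib 3.10.9 were used. The symbol rule and all gene lists were chosen with earlier results of these data known. Named were all mitochondrial members, complex II, the tissue isoforms, in each other complex the 3 nuclear genes with the highest mean FPKM and the 2 largest differences each way, the extremes of each other list, and copies of these, and other names were chosen after their values were seen. Alternatives covered filters, detection, thinning, denominators, centring, the deposited FPKM, Y-only cells and leaving out runs of cells. Runs of library numbers and the sum without *mt-Cytb* were added after the data were seen.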

Additional observations from a re-analysis of the deposited data

How the results depend on the processing

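Of 218 values recomputed under 29 alternatives, 197 moved by less than 1 SD over cells (for shares of cells with a gene, within their exact interval, and for counts of members, within 1.5 times) and 21 by more. That SD, 0.62 for the log2 value of the mitochondrial sum, is larger than most of the differences, so the first count says little about stability. The sign of the nuclear sum changed on the FPKM scale and that of the mitochondrial sum without *mt-Cytb*. On the deposited FPKM scale, whose median gene was lower at P5 by 0.56 (log2), the mitochondrial share at P1 was 2.49%, the nuclear shares were 4.93% and 5.39% at P1 and P5, the log2 values of the sums were -0.92 and -0.47, and 18 nuclear and 7 mitochondrial members were 1.5-fold or more higher at P1. Within Y-only cells 6 nuclear members were that much higher at P5, and 3 nuclear and 4 mitochondrial members at P1. Without *CT010467.1* in the denominator 1 nuclear member was higher at P5, and with a minimum mean of 1 CPM 1 was higher at P1. Leaving out each run of 48 cell numbers gave 0 to 3 nuclear members higher at P5. Shares of all genes past 1.5-fold in these alternatives are not given, so the counts of members have no background there. The causes were not tested. The log2 value of the mitochondrial sum ranged from -0.92 to 0.02, the latter without *mt-Cytb*, that of the nuclear sum from -0.47 to 0.29, and that of their ratio from -0.60 to -0.21, negative in each alternative run for it (the ratio was not rerun without *mt-Cytb*). No paired analysis was possible because no animals are named and cell numbers of the ages mark no shared source, and values within runs of library numbers stand beside the results. Depth limits members under 5 CPM, for which an absence of fragments in a cell shows only that none was sampled.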
